A study of Homo sapiens with 267 samples.

Results

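In the run of K562 libraries whose cells took Hoechst 33342 and propidium iodide, 13 of 96 drew at least 40% of their reads on genes from the mitochondrial chromosome, out of 267 libraries in the series. These mitochondria-dominated libraries were selected by that share, with the ERCC RNA standards (synthetic RNAs added to each reaction) left out of the total. They were set against 82 libraries of the same run that lay under 40% and held at most 70% of their reads in their top 500 genes. The 1 remaining library, number 10 in the titles, had 2.19% mitochondrial reads, 93.8% of its reads in the top 500 genes and 90.6% of all its counts on ERCC standards, and it entered neither group.

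K562 is an established human myelogenous leukaemia line driven by the fusion kinase BCR-ABL. Cells of both groups were of the line CCL-243, with no benzene or drug treatment in their labels and a passage label of 90-92. They were exposed for 20 min to Hoechst 33342 at 2 µM, a membrane-permeant DNA dye. Propidium iodide, a dye kept out by intact membranes, was used at 3.75 µM for the same time. RNA of captured cells was converted to cDNA in Fluidigm C1 microfluidic sites with the SMARTer kit. RNA of the study's bulk samples was extracted first and converted with the reagent mixes of the tube controls. Both were made into libraries with Nextera XT. The study preserved part of its cells with the cross-linker DSP and, in its run with these dyes, sequenced propidium iodide-positive cells as well, but the labels give neither the fixation, the propidium iodide status nor the kind of sample (cell, bulk or empty site) of a library. Each library is 1 deposited sample, no separate cultures are named, and the groups were formed from measured values. All values below are therefore descriptions, with the range over libraries as their spread and no test.

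The mitochondrial genome is transcribed inside the organelle into ribosomal RNAs, transfer RNAs and the messenger RNAs of 13 respiratory chain subunits, which stay behind its double membrane. All other proteins of the cell, including most respiratory chain subunits, come from nuclear genes whose messenger RNAs are in the cytosol, while some long non-coding RNAs such as MALAT1 and NEAT1 remain in the nucleus. A high share of mitochondrial reads is widely used to mark damaged cells in single-cell RNA sequencing.

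The gap between the groups was wide. Just inside the limit, library 28 had 49.7% mitochondrial reads, library 6 had 50.6% and library 5 had 69.4%, while the other 10 mitochondria-dominated libraries lay between 76.96% and 88.9%. Just outside it, library 80 had 30.997% and library 88 had 28.9%. The median share was 78.8% in the mitochondria-dominated libraries and 12.5% in the comparison libraries, whose lowest was 0.851%. The 3 marker genes that name the group were high in it, as the choice by mitochondrial share makes them: MT-CO1 (cytochrome c oxidase subunit 1) had a median of 105633 CPM (counts per 1000000 reads, here on all genes) against 7944, MT-ND4 (complex I subunit 4) 111541 against 19118, and MT-CYB (cytochrome b) 45939 against 6356.

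All 13 mitochondria-dominated libraries carried title numbers from 5 to 30, whereas 16 of the comparison libraries were numbered 1 to 30 and 66 were numbered higher. What the numbers stand for is not given, so many results are also given against the 16 comparison libraries with numbers up to 30. The study's experiment with these dyes held more DSP-fixed than fresh cells, and bulk samples. It describes low-quality libraries among its fresh cells but not its fixed ones. Whether the numbers follow fixation or kind of sample could not be told from the labels, so differences between the groups may include those of fixation. Within the comparison group the 6 libraries numbered 91 to 96 stood apart, with 9120 to 11632 nuclear genes with more than 2 reads and 68.5 to 208 nuclear reads per ERCC read. Their kind of sample is not given, and they stayed in the group as the rule sets it. Depth was 413243 to 836300 reads on genes in the mitochondria-dominated libraries and 50358 to 2043351 in the comparison libraries. On nuclear genes alone it was 66495 to 413536 and 40013 to 1809688 reads.

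**Figure D1:**
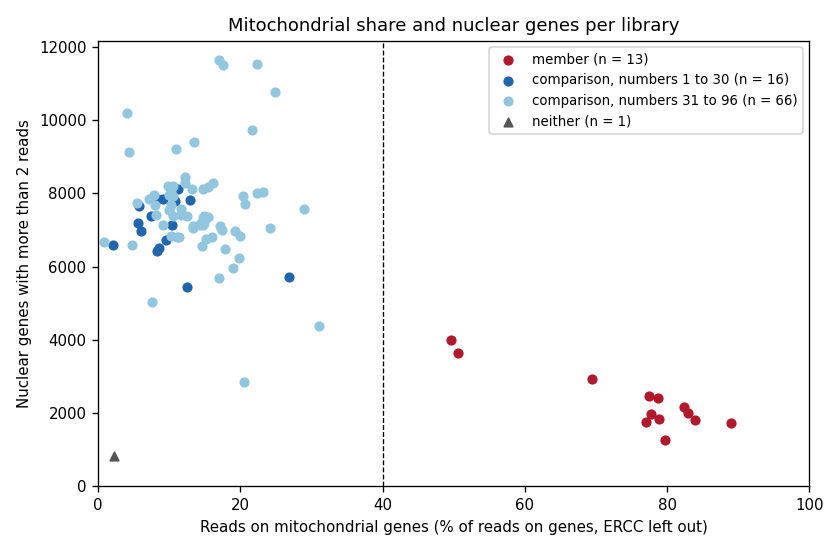
Each point is 1 library of the run, with the share of its reads on mitochondrial genes on the x axis (%) and the number of nuclear genes with more than 2 reads on the y axis. The dashed line is the limit of 40%, to the right of which the 13 mitochondria-dominated libraries had 1258 to 3984 nuclear genes, against 2855 to 11632 in the 82 comparison libraries.

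Relative to the standards, the mitochondria-dominated libraries were low in nuclear reads and not high in mitochondrial ones. The ERCC standards give a scale that does not depend on the make-up of the cell's own RNA. Nuclear reads per ERCC read had a lowest value of 0.243, a median of 0.603 and a highest of 2.46 in the mitochondria-dominated libraries. In the comparison libraries the corresponding values were 3.92, 15.3 and 208, and without libraries 91 to 96 they were 3.92, 14.7 and 63.1. The groups did not overlap, and the medians differed 25.3-fold, 57.5-fold against the comparison libraries numbered up to 30 and 24.3-fold without libraries 91 to 96. Nuclear reads enter the share that chose the libraries, so low nuclear relative to mitochondrial reads were fixed by the choice. The lack of overlap also rests on the limit for the top 500 genes. That limit kept library 10, with most of its counts on ERCC standards, out of the comparison. Mitochondrial reads per ERCC read were 0.9497, 2.20 and 2.98 (lowest, median, highest) in the mitochondria-dominated libraries and 0.098, 2.20 and 23.7 in the comparison libraries, whose highest was 7.65 without libraries 91 to 96. Here the mitochondria-dominated libraries lay inside the range of the others, with a ratio of medians of 1.00, and of 0.740 against the libraries numbered up to 30. ERCC standards took 16.99% to 45.6% of all counts in the mitochondria-dominated libraries and 0.458% to 15.7% in the comparison libraries. The cause of the low nuclear reads per ERCC read, beside mitochondrial ones at the level of the comparison libraries, was not tested.

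**Figure D2:**
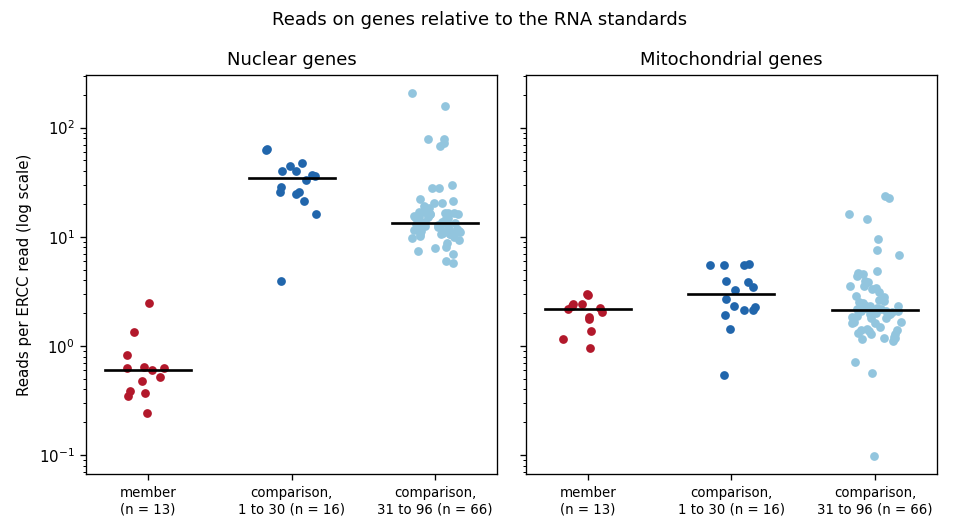
Reads on nuclear genes (left) and on mitochondrial genes (right) per ERCC read on a log scale, 1 point per library, for 13 mitochondria-dominated libraries, 16 comparison libraries numbered up to 30 and 66 numbered above 30, with bars at the medians. For nuclear genes the highest mitochondria-dominated library (2.46) lies under the lowest comparison library (3.92), and for mitochondrial genes the medians are 2.20, 2.97 and 2.14.

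Fewer kinds of nuclear transcript remained. Nuclear genes with more than 2 reads numbered 1258 to 3984 (median 1994) in the mitochondria-dominated libraries and 2855 to 11632 (median 7383.5) in the comparison libraries, of which those numbered up to 30 had 5430 to 8128 and the highest outside libraries 91 to 96 had 9739. When the nuclear reads of every library were thinned to 5000, the counts of genes with a read were 855 to 1621 (median 1151) and 1632 to 2662 (median 2296.5), with 1876 to 2501 in the comparison libraries numbered up to 30. By this count of genes with at least 1 read, the groups did not overlap at equal depth either. The highest of the one nearly met the lowest of the other. The medians differed 2.00-fold by this count, but only 1.25-fold at equal depth for genes with more than 2 reads. The limit of 70% of reads in the top 500 genes keeps libraries of few genes out of the comparison. The gaps in gene number and in the share of the top nuclear genes are therefore set in part by the rule. Nuclear reads were concentrated in few genes, the 50 most abundant nuclear genes taking 23.2% to 45.7% of them (median 35.4%) in the mitochondria-dominated libraries and 10.4% to 26.4% (median 12.8%) in the comparison libraries, or up to 18.9% without libraries 91 to 96. The top nuclear gene that is no copy of a mitochondrial gene varied between them. It was MALAT1 in libraries 5, 6, 12, 14, 24, 26, 28 and 30, PKN2 (a protein kinase) in library 8, ALDOA (a glycolytic aldolase) in library 13, GATA1 (the erythroid transcription factor) in library 17 and a gene without a symbol in libraries 18 and 22.

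Nuclear profiles of the mitochondria-dominated libraries shared little rank order with those of the comparison libraries or with one another. Over the 500 genes with the highest mean of the group means, the Spearman correlation with the comparison mean was -0.01 to 0.19 (median 0.08) for the mitochondria-dominated libraries and 0.49 to 0.91 (median 0.76) for each comparison library against the mean of the others. Since genes high in only 1 mitochondria-dominated library can enter that set, the 500 genes highest in the comparison libraries alone were also used, where the medians were 0.20 and 0.53. In this second set a median of 111 genes (15 to 158) had no read in a mitochondria-dominated library, against 0 (0 to 10) in a comparison library. Over the first set, the correlation of each mitochondria-dominated library with the mean of the others of its group was -0.08 to 0.23 (median 0.14). These libraries were thus also little alike among themselves. The points share a run and differ in nuclear depth, so these correlations are descriptions only.

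The make-up of the mitochondrial reads themselves was not fixed by the choice of libraries. MT-RNR2, the large mitochondrial ribosomal RNA (chromosome MT, 1671 to 3229, + strand, GRCh37), was the most abundant gene with 14.03% to 24.2% (median 17.1%) of mitochondrial reads in the mitochondria-dominated libraries and 11.98% to 40.6% (median 22.9%) in the comparison libraries. MT-CO1 (MT, 5904 to 7445, + strand) took 10.7% to 17.7% (median 14.7%) and 2.13% to 20.8% (median 5.59%). Both differences depended on title numbers: against the libraries numbered up to 30, whose medians were 16.9% for MT-RNR2 and 16.7% for MT-CO1, the ratios were 1.01 and 0.88, whereas against those numbered above 30 they were 0.71 and 2.73. MT-CO2, cytochrome c oxidase subunit 2, had a median of 9.31% against 10.99% and 13.03% in the lower and higher numbered comparison libraries.

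MT-ND5, a core proton-pumping subunit of complex I (MT, 12337 to 14148, + strand), was higher against both blocks. Its share was 2.34% to 6.50% (median 5.65%) in the mitochondria-dominated libraries, 1.99% to 4.54% (median 2.89%) in the comparison libraries numbered up to 30 and 0.156% to 4.15% (median 2.52%) in the others. The ranges overlapped, and the ratios of medians were 1.96 and 2.24. MT-ND6, the complex I subunit encoded on the other strand, had ratios of 1.93 and 1.63, MT-ND3 of 2.49 and 1.34, and MT-CYB of 1.49 and 1.36. MT-ND4, at a median of 14.3%, had ratios of 1.02 and 0.93. The 2 ribosomal RNAs together took a median of 20.4% of mitochondrial reads, against 21.02% and 28.6% in the comparison blocks, and the 22 transfer RNAs took 0.22% against 0.18% over all comparison libraries.

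**Figure D3:**
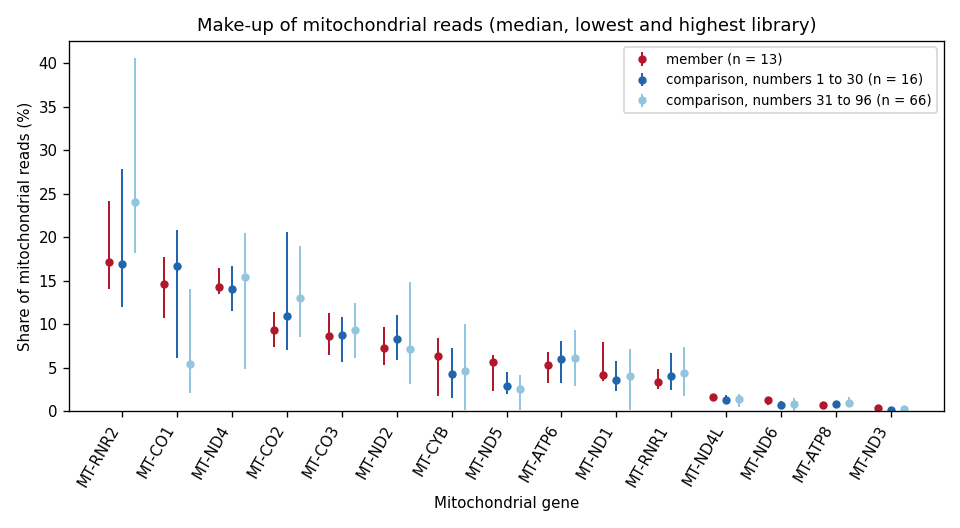
Share of mitochondrial reads (%) taken by each of the 2 ribosomal and 13 messenger RNA genes, with points at the median library and bars from the lowest to the highest library. MT-CO1 and MT-RNR2 of the mitochondria-dominated libraries lie with the comparison libraries numbered up to 30, while MT-ND5 lies above both blocks (5.65% against 2.89% and 2.52%).

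Pseudogene copies of mitochondrial genes, inserted in nuclear chromosomes in the course of evolution, are counted as nuclear genes in the table and were high in the mitochondria-dominated libraries. A cluster on chromosome 1 holds 7 of them between 564442 and 570302 (GRCh37). MTATP6P1 (569076 to 569756, + strand) aligned to MT-ATP6 with 10 differences in 681 bases, an identity of 98.5%. A stretch of 120 bases that holds 4 of the differences, in capitals, is shown because it shows how little sequence separates reads of the copy (chr1:569148-569267, + strand) from those of the mitochondrial gene (MT, 8599 to 8718, + strand).

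MTATP6P1: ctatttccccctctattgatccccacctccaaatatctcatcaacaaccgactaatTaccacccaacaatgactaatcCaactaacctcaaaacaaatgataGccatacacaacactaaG

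MT-ATP6: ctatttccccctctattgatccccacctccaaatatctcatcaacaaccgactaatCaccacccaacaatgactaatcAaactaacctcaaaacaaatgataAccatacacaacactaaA

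The copies took 1.54% to 13.97% (median 5.94%) of nuclear reads in the mitochondria-dominated libraries and 0.021% to 0.714% (median 0.240%) in the comparison libraries, without overlap, and had a median of 0.163% in those numbered up to 30. MTATP6P1 had 5651 to 80171 (median 30210) nuclear CPM (counts per 1000000 reads on nuclear genes) against 123 to 4450 (median 1623). Per 1000 reads of MT-ATP6, however, MTATP6P1 drew 150 to 195 reads (median 167) and 147 to 201 (median 174) in the respective groups, and these ranges overlapped. For MTND2P28 the medians were 70.6 and 55.5 reads per 1000 reads of MT-ND2, and for MTCO1P12 14.5 and 7.29 per 1000 reads of MT-CO1. Counts of these near-identical copies are uncertain, since reads of a mitochondrial transcript can be placed on them. Of 394 copies found by symbol, 313 had no read in any mitochondria-dominated library and 10 passed the filter on level given next. Of those 10, 8 had a comparison mean under 100 CPM and passed only through the libraries chosen for their mitochondrial reads, so their direction is no result.

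For the other nuclear transcripts, log2 ratios of mean nuclear CPM (10 CPM added to each mean) were formed for the 2342 genes whose group means averaged at least 100 CPM. A gene under 100 CPM in the comparison libraries passed only with a higher mean in the mitochondria-dominated ones, so the filter fixed its direction. The reverse holds for genes under 100 CPM in the mitochondria-dominated libraries. Of the 2342 genes, 737 (31.5%) were 2-fold or more higher in the mitochondria-dominated libraries and 686 (29.3%) were 2-fold or more lower, with a median log2 ratio over all genes of 0.10. Called in the same direction against the libraries numbered up to 30 were 700 of the 737 and 591 of the 686. This is no independent check, since the mitochondria-dominated libraries were the same and these comparison libraries are part of the full group. Much of the overlap was therefore fixed in advance. Of all 2323 genes tested against the libraries numbered up to 30, 822 were called higher and 777 lower.

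Single libraries weighed on many of these means. A median of only 5 of the 13 libraries exceeded the comparison median for the higher genes. In 454 of the 737 higher genes (61.6%) a single library held over 50% of the summed CPM, as it did in 327 of the lower genes (47.7%) and in 1235 of all genes tested (52.7%). By the ratio of median CPM, 138 of the 737 (18.7%) were still 2-fold higher, where 6.45% of all genes tested were, and 679 of the 686 (99.0%) were still 2-fold lower, where 68.9% of all genes tested were. Leaving out each library in turn, 247 of the higher genes and 657 of the lower genes stayed past 2-fold throughout. Counting genes in which at least 11 of the 13 libraries lay on one side of the comparison median gave 43 higher genes (1.84% of the genes tested) and 607 lower genes (25.9%). Without regard to the call, at least 11 libraries lay above the comparison median in 43 of all genes tested (1.84%) and below it in 923 (39.4%), so low values in most libraries were common among all genes tested.

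Examples of single-library genes are among the highest means. PKN2 (log2 ratio 4.84, and 2.91 without library 8) had 76.2% of its summed CPM in library 8, with a median of 309 CPM against 30.5. MGRN1, a ubiquitin ligase (log2 ratio 4.48), had 98.02% in library 24, without which the ratio was -0.25, and its median of 2.42 CPM was under the comparison median of 4.10. FAM98A (log2 ratio 4.25, and 2.99 without library 8) had 62.1% in library 8 and medians of 8.60 and 17.3 CPM. GATA1 (log2 ratio 2.20) reached 28292 CPM in library 17, which held 93.6% of its sum, and had medians of 98.3 and 388 CPM and a log2 ratio of -1.57 without that library. IER5, an immediate-early gene with a log2 ratio of 2.91, was read in library 17 alone, and its ratio without that library was -2.51.

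The 43 evenly higher genes comprised 10 copies of mitochondrial genes, 28 other genes with a symbol and 5 without one in the annotation, among them ENSG00000266658 (log2 ratio 3.76) and ENSG00000255823 (4.07). Copies were found by symbol, so whether any of these 5 is a copy as well could not be told. The comparison mean of ENSG00000255823 was 69.9 CPM, so the filter on level fixed its direction. The same holds for 8 of the 10 copies and for ENSG00000269028, ENSG00000271043, ENSG00000269900, SCARNA22, SAFB2, DPP7, FAM193B, WASH3P and RECQL4. All of these had comparison means under 100 CPM. This cut of 11 libraries and the genes it gave were chosen after the values were seen. Of the genes with a symbol, those known from RNA splicing are described first, followed by examples of the others. They were not taken from a fixed list, and the SR and hnRNP lists below held more lower than higher genes.

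MALAT1 (ENSG00000251562; chromosome 11, 65265111 to 65275544, + strand), a long non-coding RNA retained in nuclear speckles, was the most abundant of them. Its CPM was 12274 at the lowest, 38845 at the median and 86704 at the highest in the mitochondria-dominated libraries, and 1143, 8239 and 50459 in the comparison libraries. The ranges overlapped, all 13 libraries exceeded the comparison median, and the log2 ratio was 1.87, or 2.89 against the libraries numbered up to 30, whose median was 3160 CPM. The sum in the mitochondria-dominated libraries was 104683 reads (exact Poisson 95% interval 104050 to 105319, counting error only). NEAT1, the RNA scaffold of paraspeckles, was less even, with 47.5 to 18366 CPM (median 2940) against 49.5 to 9111 (median 1446), a log2 ratio of 1.34 (0.91 without library 28) and 8 of 13 libraries above the comparison median. Together they took 1.25% to 10.5% (median 3.94%) of nuclear reads against 0.154% to 5.30% (median 0.963%).

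LUC7L3 (ENSG00000108848; chromosome 17, 48796926 to 48833580, + strand), which encodes a splicing factor related to a yeast U1 snRNP protein, was the most abundant messenger RNA by mean CPM in the mitochondria-dominated libraries. It lay at 438 to 12182 CPM (median 5401) against 9.40 to 2496 (median 605), and 10 of 13 libraries exceeded the highest comparison library. Libraries 13 and 14 were the exceptions at 438 and 511 CPM, under the comparison median. Its log2 ratio was 2.85, and 3.53 against libraries numbered up to 30.

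SRSF11, an SR splicing factor (chromosome 1, 70671365 to 70718735, + strand), had 639 to 9938 CPM (median 3134) against 117 to 2525 (median 524) and a log2 ratio of 2.36. RBM25, an RNA-binding regulator of alternative splicing, had 404 to 5336 (median 2422) against 57.8 to 1642 (median 380) and a log2 ratio of 2.30. For both genes all 13 libraries exceeded the comparison median, and 8 exceeded the highest comparison library. NKTR, which encodes a cyclophilin with an arginine- and serine-rich tail, had 612 to 6545 CPM (median 4146) against 30.5 to 3634 (median 773) and a log2 ratio of 1.83. The log2 ratios of further genes were 1.82 for SRRM2, a speckle scaffold protein, 2.09 for PRPF38B, 1.61 for CCAR1, 1.37 for U2SURP, a U2 snRNP-associated protein, and 1.32 for ARGLU1 (0.78 without library 26), each with 11 or 12 of 13 libraries above the comparison median. Many of the evenly higher genes have other roles. Examples by log2 ratio were FAM193B (3.31, and 1.94 without library 24), the golgin gene GOLGA8B (2.59), CDK5RAP2, a centrosomal protein (2.56, and 1.77 without library 26), DYNC2I1, a dynein subunit of cilia (2.48), BTAF1, a regulator of the TATA-binding protein (2.35, and 1.72 without library 26), and RECQL4, a DNA helicase (2.07). WASH3P, a transcribed pseudogene, had 3.27. The comparison means of FAM193B, WASH3P and RECQL4 were 37.1, 47.4 and 54.5 CPM, so the filter on level fixed the direction of these genes. GOLGA8B has a near-identical paralogue, GOLGA8A (1.66), that can share its reads, and a further golgin gene, GOLGA4, had 1.924.

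These values are shares of the nuclear reads that remained, not amounts. Per 1000 ERCC reads, MALAT1 had a median of 14.4 reads in the mitochondria-dominated libraries and 121 in the comparison libraries, 8.37-fold lower. LUC7L3 was 2.80-fold lower on this scale (4.24 against 11.9), SRSF11 5.05-fold lower and NKTR 6.65-fold lower. Only 14 of the 2342 genes had a higher median per ERCC read in the mitochondria-dominated libraries, among them 9 of the 10 copies of mitochondrial genes. The higher CPM of MALAT1 and the splicing genes thus stood beside lower amounts per ERCC read, by a smaller factor than the 25.3-fold of nuclear reads as a whole.

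PRAME, a cancer-testis antigen that K562 cells express at high level, had a ratio near that of all nuclear reads. It was read in all 13 libraries at 1736 to 8832 CPM (median 3887), against 1494 to 7852 (median 3331), with a log2 ratio of 0.23. Per ERCC read it was 27.4-fold lower. Of K562 and erythroid identity genes, 13 of 26 were tested. Of these 5 were higher and 5 lower (31.5% and 29.3% of all genes tested), with a median log2 ratio of 0.16. The higher ones included RHAG (Rh-associated glycoprotein, 2.64) and GATA1, both with medians under the comparison median. Markers of other cell types summed to 9.65 to 5160 CPM (median 177) against 64.3 to 3150 (median 725), 10 of the 17 found had no read in the mitochondria-dominated libraries, and 3 were tested. Of these CD3D and LYZ were called higher by their means, with reads in 7 and 4 of the 13 libraries, and KRT8 lower. Their median log2 ratio of 1.84 was that of CD3D, which was 0.34 without library 30, while LYZ was at -0.65 and the list at -0.40 without library 14. The part of other cell types in the results was not tested.

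**Figure D4:**
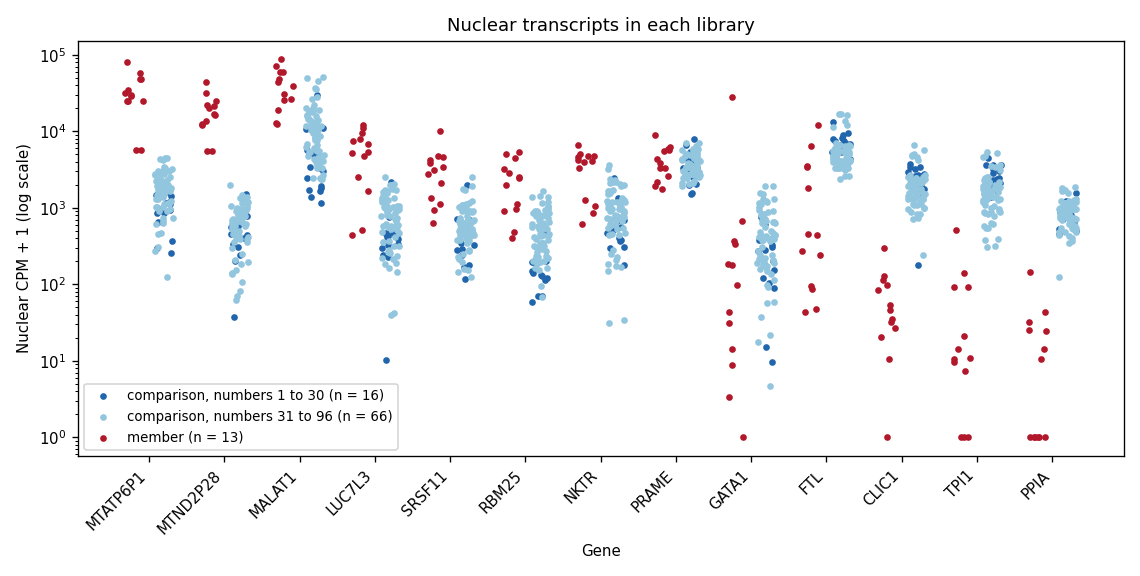
Nuclear CPM + 1 on a log scale for 13 genes, 1 point per library, with 13 mitochondria-dominated libraries (red) to the left and 82 comparison libraries (blue) to the right of each gene. The red points of MTATP6P1 and MTND2P28 lie above all blue ones, those of MALAT1, LUC7L3, SRSF11, RBM25 and NKTR lie mostly above the blue median but overlap the blue range, PRAME overlaps throughout, and CLIC1, TPI1 and PPIA lie mostly below.

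Among the genes with the lowest ratios were abundant messenger RNAs of the cytosol. CLIC1, a chloride intracellular channel protein (ENSG00000213719; chromosome 6, 31698358 to 31707540, - strand), had 0 to 295 CPM (median 44.96) in the mitochondria-dominated libraries and 176 to 6540 (median 1924) in the comparison libraries. Its log2 ratio was -4.69, and 12 of 13 libraries lay under the lowest comparison library. The 13 libraries held 161 CLIC1 reads in all (exact Poisson 95% interval 137 to 188), against 183566 in the comparison libraries.

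TPI1, the glycolytic triose-phosphate isomerase, had a median of 9.83 CPM (0 to 505) against 1744 (308 to 5387), with a log2 ratio of -4.62 that was -5.51 without library 18. PPIA, cyclophilin A, had 9.65 CPM (0 to 146) against 813 (123 to 1896), with a log2 ratio of -4.75 and reads in 7 of 13 libraries. It has many processed pseudogenes, among which reads can be split. SLC25A5, an ADP/ATP carrier of the mitochondrial inner membrane encoded in the nucleus, had 9.99 CPM (0 to 77.3) against 498 (54.3 to 3733), a log2 ratio of -5.02. For each of these 3 genes, 12 of 13 libraries lay under the lowest comparison library.

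Other genes with the lowest log2 ratios were CHP1, a calcineurin B-like protein (-5.86), ATP6V1F, a subunit of the vacuolar proton pump (-5.09), MRPL14, a mitochondrial ribosomal protein (-4.80), UBB, a ubiquitin gene (-4.70), COX6B1, a cytochrome c oxidase subunit (-4.64, and -5.29 without library 30), and the proteasome subunits PSMB7 (-4.81) and PSMB6 (-4.67). CMBL, GTSF1 and TOR1AIP2 were the only 3 genes tested (0.128%) in which all 13 libraries lay under all comparison libraries. In 6 genes (0.256%) all 13 lay above them all. Of these, 5 were copies of mitochondrial genes, and 1 has no symbol by which a copy could be told. RPL9P7, a processed ribosomal pseudogene, was the only gene tested with 0 reads, which over the 13 libraries allows up to 1.40 CPM (3 reads).

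Cytosolic ribosomal proteins, the building blocks of the ribosome, had 71 of 79 genes tested, of which 0 were higher and 51 lower, with a median log2 ratio of -1.58 against 0.10 over all genes tested, and of -1.35 against the libraries numbered up to 30. They took 0.377% to 5.62% (median 2.02%) of nuclear reads against 3.65% to 11.95% (median 6.65%). Examples are RPS18 (median 361 against 3088 CPM, log2 ratio -2.45) and RPL15 (13.2 against 1560, -3.18, and -3.83 without library 17). Ratios of median CPM were lower than ratios of means, with a median log2 ratio of -3.93 over the 71 genes and of -2.12 over all genes tested. Beside the counts of this list and those below stand 31.5% higher and 29.3% lower among all genes tested.

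Nuclear-encoded respiratory chain subunits, whose partners are made in the mitochondrion, had 53 of 76 genes tested, 3 higher and 36 lower, with a median log2 ratio of -2.06 (-1.94 against numbers up to 30). ATP5F1B, the catalytic beta subunit of ATP synthase, had a median of 164 CPM (0 to 477) against 1427 (178 to 6819) and a log2 ratio of -3.11. COX4I1 of cytochrome c oxidase had medians of 19.7 and 787 CPM and a log2 ratio of -2.43, or -3.15 without library 6. The list took 0.265% to 1.29% (median 0.639%) of nuclear reads against 0.879% to 3.13% (median 2.11%). The 3 higher subunits were NDUFA12, NDUFB5 and NDUFV2. Mitochondrial ribosomal proteins had 14 genes tested, 0 higher and 8 lower (median -1.32, and -2.21 against numbers up to 30), and mitochondrial carriers, channels and chaperones had 21, with 2 higher and 12 lower (median -1.10).

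Glycolytic enzymes had 17 of 19 genes tested, 1 higher (PFKL) and 10 lower, with a median of -1.42 (-2.05 against numbers up to 30). ENO1, an enolase, had medians of 89.9 and 2904 CPM and a log2 ratio of -3.55, and ALDOA medians of 632 and 4935 CPM and a log2 ratio of -1.53, with 15504 CPM in library 13, without which the ratio was -2.71. Abundant short cytosolic messenger RNAs had 35 genes tested, 0 higher and 23 lower (median -1.38). FTL, the ferritin light chain, had 42.98 to 12114 CPM (median 435) against 2369 to 16808 (median 5031) and a log2 ratio of -1.38, or -2.03 without library 24. Proteasome subunits had 27 genes tested, 1 higher and 17 lower (median -1.81, and -2.00 against numbers up to 30). Globins and haem synthesis genes had 7, with 1 higher and 6 lower (median -2.12), but the median of this list was -0.75 against the libraries numbered up to 30.

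Endoplasmic reticulum residents, whose messages are translated on the membrane, were called in both directions, as were all genes tested (31.5% higher and 29.3% lower). Of 29 tested, 5 were higher and 6 lower, with a median log2 ratio of -0.21, and their share of nuclear reads was 0.291% to 4.62% (median 1.13%) against 0.459% to 3.24% (median 0.931%). HSP90B1, a lumenal chaperone, had medians of 829 and 961 CPM and a log2 ratio of 0.18, which was -0.66 without library 17. TMED2, a cargo receptor with a log2 ratio of 3.23 (1.96 without library 12), had 62.3% of its sum in library 12 and medians of 15.04 and 42.99 CPM.

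Splicing genes were divided as well. Of 7 SR splicing factors tested, 3 were higher (SRSF11, SRSF4 and SRSF7) and 4 lower (SRSF2, SRSF3, SRSF5 and SRSF6), with a median of -1.34 that was 0.00 against the libraries numbered up to 30. SRSF4 had medians of 292 and 98.2 CPM, whereas SRSF7 had 85.96 and 245 CPM, and its log2 ratio of 1.35 was -0.81 without library 8. Of 14 hnRNP genes, which package nascent transcripts, 0 were higher and 8 lower (median -1.13). Nuclear-retained and long non-coding RNAs had 14 tested, 3 higher (MALAT1, NEAT1 and KCNQ1OT1) and 3 lower (GAS5, SNHG3 and DANCR, hosts of small nucleolar RNAs), with a median of -0.34.

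Stress and growth lists held genes on both sides, as did all genes tested (31.5% higher and 29.3% lower). Few members of these lists passed the filter on level. Heat-shock genes had 8 tested, 1 higher and 4 lower (median -0.91), with HSPA8, the constitutive chaperone, at medians of 27.8 and 844 CPM and a log2 ratio of -4.06. ATF4 stress response genes had 9, with 3 higher and 4 lower (median -0.73). Immediate-early genes had 4, with 2 higher and 0 lower (median 0.59, and -0.34 without library 17), and the BCL2 family and death regulators had 2, RIPK1 higher at 3.46 with reads in 5 of 13 libraries and CYCS lower at -1.33. Without library 17 CYCS was at -2.66 and the median of this pair went from 1.06 to 0.46, and without library 30 RIPK1 was at -0.31 and the median at -1.22. Against the libraries numbered up to 30 the median of this list was -2.24. G2/M and mitosis genes had 18, with 1 higher and 8 lower (median -0.54).

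**Figure D5:**
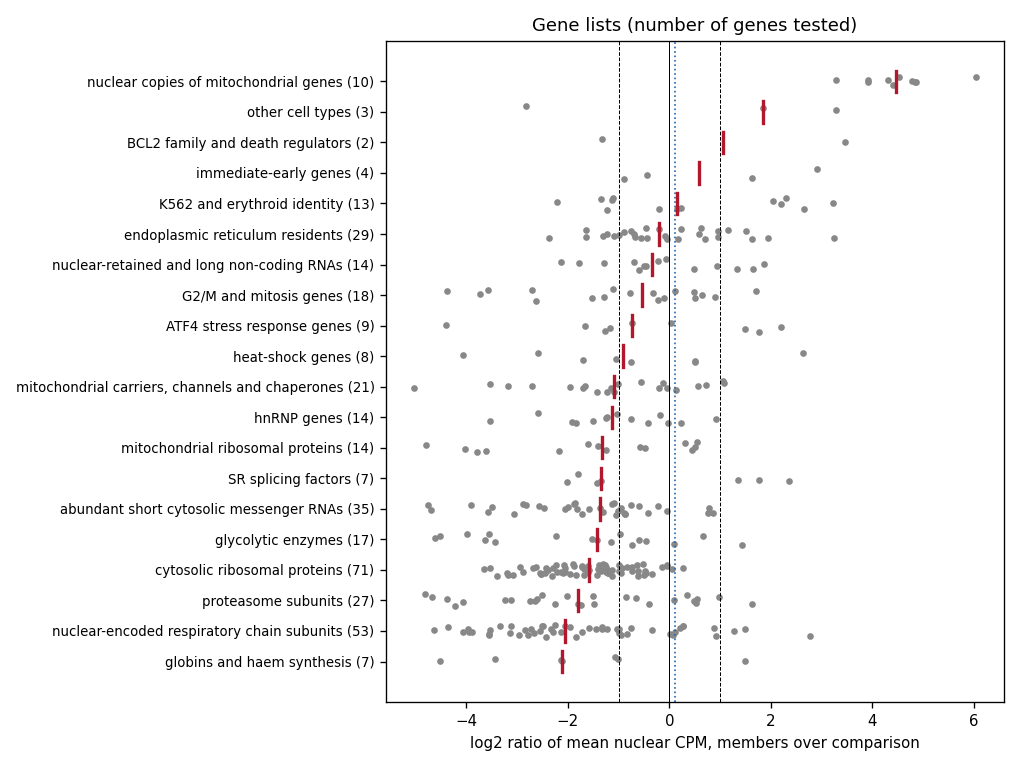
Log2 ratios of mean nuclear CPM, mitochondria-dominated over comparison libraries, for the genes tested in each list (grey points), with red bars at the list medians, dashed lines at 2-fold and a dotted blue line at the median of all 2342 genes (0.10). Copies of mitochondrial genes lie between 3.28 and 6.03, and ribosomal, respiratory chain, proteasome and glycolytic lists have medians from -2.06 to -1.42.

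The higher genes were longer than the lower ones. Among 2192 protein-coding genes tested with a length, the median spliced length (of the transcript marked canonical in the annotation) was 4290 bases for the 666 higher genes, 2358 for the 647 lower genes and 3668 for all. In 4 bins of 548 genes each, from the shortest to the longest, the median log2 ratio was -1.09, 0.11, 0.32 and 0.60, and the share called lower went from 51.6% to 16.8%. With the exon number of the canonical transcript the medians went from -0.98 for genes of 1 to 7 exons to 0.76 for genes of 21 or more. GC content gave no such order (0.19, -0.10, -0.25 and 0.42). Among genes of 300 CPM or more, the length bins had medians of -1.005, 0.18, 0.95 and 1.11, and below that level of -1.13, 0.05, 0.11 and 0.42, so the order held at both levels. By class, protein-coding genes took a median of 80.04% of nuclear reads against 92.0%, and lncRNA genes 6.47% (2.73% to 14.2%) against 3.79% (1.37% to 8.77%).

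In the run with CellTracker stains and benzene, 2 of 71 libraries reached 40%. They were set against 65 others, and the remaining 4, under 40% but with over 70% of their reads in the top 500 genes, entered neither group. Both, numbered 27 and 33, were labelled untreated, while the others were untreated or had benzene at 10 mM for 3 h, all at passages 20 to 22. They held 43.1% and 47.2% mitochondrial reads. Nuclear reads per ERCC read were 1.72 and 1.52, under all 65 comparison libraries (9.29 to 99.2, median 22.4), while mitochondrial reads per ERCC read were 1.30 and 1.36, inside the range of the others (0.0451 to 6.91, median 1.73). Nuclear reads enter the share that chose the libraries in this run too. Of 1177 genes tested in both runs, 157 were 2-fold higher in the first run, and 64 of these (40.8%) were also 2-fold higher here, where 23.2% of the genes were. Of 560 lower genes, 332 (59.3%) were also lower, where 52% were. The shared genes were 23.4% of those higher and 54.2% of those lower in the benzene run. Of the copies of mitochondrial genes, whose level follows from the choice of libraries here too, MTATP6P1 had 9388 and 10653 CPM against a median of 960. SRSF11 had 374 and 2873 CPM against a median of 188, and CLIC1 had 105 and 165 against 1649. Several genes named above had other values there. LUC7L3 had 31.9 and 37.2 CPM against 224, and PPIA had 1178 and 2310 against 993, both on the other side than in the first run. MALAT1 had 1547 and 3994 CPM against 1346, a log2 ratio of 0.51. PRAME, with 83.6 and 865 CPM against 3420, had -2.83 in place of 0.23. NKTR had -0.26, GATA1 -4.65 and RHAG -5.14, each positive in the first run, while ALDOA had 0.51, where the first run gave -1.53. Ribosomal proteins had a median log2 ratio of -0.37 there, with 26 of 70 lower and 8 higher. Of all 1794 genes tested in that run, 764 were lower and 635 higher, with a median log2 ratio of -0.20.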

How the data were processed

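Whole-transcriptome reads of 267 K562 libraries were counted by the authors, who trimmed reads with skewer, aligned them with HISAT2 to GRCh37 joined with the ERCC sequences and counted unique reads on Ensembl 75 genes with featureCounts (Subread 1.5.0 per the processing notes). The deposited counts used here are whole reads per gene, not normalised. Duplicates were marked with Picard 1.92, and the sources used here do not say if the counts include them. A CPM table of the authors was not used. In the count table, 4 columns could not be matched to a sample and were left out.

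Libraries of the run with Hoechst were grouped by measured shares as the report describes. Nuclear CPM is the count per 1000000 reads on nuclear genes, and a gene was called at 2-fold by the ratio of mean CPM with a pseudocount of 10, where the group means averaged at least 100 CPM. Genes "tested" are those that passed this level, and no statistical test was made. For equal depth, reads were thinned at random to 5000 per library, and 0 libraries were shallower. Genes were placed with the GENCODE annotation of GRCh37, which held 55665 of the 63677 identifiers, and sequences were read from the GRCh37 genome. SMARTer cDNA does not mark strand, so overlapping genes on opposite strands cannot be told apart. Reads carry no molecular identifiers, and the intervals cover counting error only. Depth per library is given in the report and limits low genes most.

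Named genes were the 12 highest and 12 lowest ratios among genes with reads in 50% or more of the higher group's libraries, the 10 most abundant nuclear genes, up to 4 members per list by mean level and the mitochondrial genes. The evenly higher genes, other named members of lists and the SR, hnRNP and proteasome families were chosen after the values were seen. The members and lists were chosen with earlier results of these data known. Alternatives changed the pseudocount, level filter, average, scale, group limits and comparison libraries, or left out each library. The scripts were tested on simulated data. Python 3.11.15, numpy 2.4.6, pandas 2.3.3, scipy 1.17.1, Biopython 1.88 and matplotlib 3.10.9 were used.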

Additional observations from a re-analysis of the deposited data

How the results depend on the processing

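Of 2608 values under alternatives, 2457 moved by less than the spread between libraries, 113 moved further and 38 changed direction. Counts of genes and libraries were judged by a fixed fold in place of the spread. Changes of direction were counted only for values that were at least 2-fold to begin with, so smaller values that crossed 0 are not among the 38. No paired analysis was possible because the results come from no test, and the sources do not say that libraries of equal number share a culture, batch or day. Without each mitochondria-dominated library in turn, nuclear reads per ERCC read differed 24.8- to 27.3-fold, 733 to 771 genes were higher and 684 to 710 lower, and list medians ranged from -0.40 to 1.95 for other cell types and from -1.22 to 1.17 for the BCL2 family. Single genes that changed direction without 1 library ranged from -0.81 to 1.47 (SRSF7, lowest without library 8), -0.65 to 3.39 (LYZ, 14), -1.57 to 2.32 (GATA1, 17), -2.51 to 3.02 (IER5, 17), -0.25 to 4.59 (MGRN1, 24) and -0.31 to 3.57 (RIPK1, 30). HSP90B1, not past 2-fold, ranged from -0.66 (without 17) to 0.29, and the medians of K562 identity (-0.10 to 0.27) and immediate-early genes (-0.34 to 0.70) crossed 0. The cause was not tested for any change given here.

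The median log2 ratio over all genes tested was 0.10, and the higher genes made up 51.8% of those called. It was -0.00 with a median-of-ratios scale, 0.21 with nuclear copies of mitochondrial genes left out of the total and 0.24 over protein-coding genes alone. It was -2.12 with median CPM (151 higher and 1613 lower, 8.56% higher) and -2.33 with the difference of mean log2(CPM + 1) (147 and 1671, 8.09%). Filters gave -0.48 at 20 CPM (1511 and 2803, 35.03%), 0.55 at 500 CPM (104 and 67, 60.8%) and -0.02 with no filter beyond 1 read (1815 and 4597, 28.3%).

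With median CPM, list medians were -3.93 (ribosomal proteins), -3.95 (respiratory chain), -3.40 (mitochondrial ribosomal proteins), -3.60 (mitochondrial carriers), -2.29 (endoplasmic reticulum), -1.46 (nuclear-retained RNAs), -3.49 (short cytosolic RNAs), -4.06 (glycolysis and proteasome), -4.67 (globins), -1.88 (K562 identity), -2.51 (immediate-early), -2.93 (heat-shock), -2.59 (ATF4), -2.02 (BCL2 family), -3.01 (G2/M) and -3.02 (other cell types). Genes that changed direction there were MGRN1 (-0.18), FAM98A (-0.55), GATA1 (-1.88), IER5 (-1.97), RHAG (-1.02), TMED2 (-1.08), SRSF7 (-1.41), RIPK1 (-0.45), CD3D (-3.02) and LYZ (-0.48). With mean log2 values the lists, in the same order, were at -4.08, -4.92, -3.78, -4.00, -2.64, -2.35, -3.60, -4.66 (glycolysis), -4.35 (proteasome), -5.00, -1.95, -3.12, -3.03, -2.90, -2.22, -2.80 and -2.36, hnRNP genes at -2.49, and GATA1 (-1.95), IER5 (-3.12), TMED2 (-0.81), SRSF7 (-1.96), RIPK1 (-0.17), CD3D (-2.36) and LYZ (-0.56) changed direction.

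At 20 CPM, mitochondrial ribosomal proteins had -2.05, K562 identity -1.12, the BCL2 family -1.09 and other cell types -0.77. At 500 CPM, the respiratory chain had -3.11, mitochondrial carriers -0.0387, the endoplasmic reticulum 0.95, nuclear-retained RNAs 0.91, ATF4 genes 1.77 and SR factors 1.85. With no filter, mitochondrial ribosomal proteins had -2.00, K562 identity -0.76, the BCL2 family -0.66, other cell types -0.00586, nuclear copies -0.00114 and the proteasome -1.32. With a pseudocount of 100 CPM, the respiratory chain had -1.28, mitochondrial ribosomal proteins -0.86, nuclear copies 2.87 and the proteasome -1.22. A 60% limit gave -2.52 for the respiratory chain and -2.35 for the proteasome.

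Alternatives added after the data were seen were the comparison libraries numbered up to 30, leaving out libraries 5, 6 and 28 together or libraries 91 to 96, genes highest in the comparison alone and the benzene run. Without libraries 91 to 96, 724 genes were higher and 699 lower, and no value given that was at least 2-fold changed direction. The comparison libraries numbered up to 30 gave 57.5-fold for nuclear reads per ERCC read, share ratios of 0.88 for MT-CO1, 1.02 for MT-ND4, 1.01 for MT-RNR2 and 0.85 for MT-CO2, and list medians of -2.21 (mitochondrial ribosomal proteins), -0.75 (globins), -2.24 (BCL2 family) and 0.000272 (SR factors). Without libraries 5, 6 and 28 there were -2.50 for the respiratory chain, 1.84 for immediate-early genes and -2.56 for the proteasome, and genes highest in the comparison gave a correlation of 0.20. Summed reads gave an MT-CO1 share ratio of 2.11, and at equal depth genes with more than 2 reads differed 1.25-fold.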
